A study of Mus musculus with 18 samples.

Results

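Slc17a7, Tbr1, Neurod6, Neurod2, Fezf2 and Fibcd1, grouped here as markers of glutamatergic neurons of the cerebral cortex, were followed library by library in RNA from mouse striatum. Across the libraries the first 4 moved together, whereas Fezf2 did so only loosely and Fibcd1, better known from the hippocampus, did not, so the values of these last 2 genes go against a single cortical label. They were taken by name from the deposited expression table, and all 6 were found among its 29942 gene names. The table gives FPKM, a level corrected both for the length of a transcript and for the mapped fragments of its library, for 18 libraries of polyA RNA, 1 per mouse. The tissue was the striatum of both hemispheres above the level of the anterior commissure, a large forebrain nucleus that lies directly under the cortex. All mice were siblings of the strain 129Sv/Jae S4, matched for age and sex and housed in groups, with no age or sex recorded in the labels. The mice of 3 groups received 0.9% saline by intraperitoneal injection, and those of the other 3 received D-amphetamine hemisulfate by the same route, 7 mg/kg per day in all, in a volume of 10 ml/kg. Each treatment was sampled on days 1, 7 and 21, with 3 mice in each of the 6 groups, in a study of the striatal transcriptome and drug-induced repetitive behaviours. No genotype other than the strain is stated, so all groups share it.

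In the cortex, excitatory projection neurons load their synaptic vesicles with glutamate, and most of them do so with the vesicular glutamate transporter that Slc17a7 encodes. Their identity is set up by transcription factors of the dorsal forebrain, which include the basic helix-loop-helix factors of the Neurod family, the T-box factor Tbr1 of deep cortical layers, and the zinc finger factor Fezf2 of subcortically projecting neurons. The principal neurons of the striatum are GABAergic, receive their excitatory input from cortex and thalamus, and are not a known major source of these transcripts. Axons and terminals of cortical neurons do run through the striatum, but their cell bodies lie outside it.

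Upstream sequences were drawn from RefSeq on the build GRCm38.p6, where all 6 genes had an entry, and the 250 bases before each gene's start were searched on both strands. The windows of the 4 genes whose levels moved together across libraries are printed because co-varying genes are the core of the data below. They are Slc17a7 at chr7:45163671-45163920 on the plus strand, Tbr1 at chr2:61804203-61804452 on the plus strand, Neurod6 at chr6:55681264-55681513 on the minus strand and Neurod2 at chr11:98329646-98329895 on the minus strand. Each reads 5′ to 3′ towards the gene, and capitals mark every match to the E-box CANNTG, the core motif that basic helix-loop-helix factors bind.
Slc17a7: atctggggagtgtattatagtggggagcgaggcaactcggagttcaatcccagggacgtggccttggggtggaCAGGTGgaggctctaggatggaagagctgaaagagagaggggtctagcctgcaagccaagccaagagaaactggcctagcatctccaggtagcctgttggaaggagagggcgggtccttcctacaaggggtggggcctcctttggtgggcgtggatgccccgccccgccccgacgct
Tbr1: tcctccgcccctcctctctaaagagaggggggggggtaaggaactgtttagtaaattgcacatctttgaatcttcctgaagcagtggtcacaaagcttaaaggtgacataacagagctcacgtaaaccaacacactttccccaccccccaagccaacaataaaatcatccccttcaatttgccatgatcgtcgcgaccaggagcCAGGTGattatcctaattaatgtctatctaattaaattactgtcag
Neurod6: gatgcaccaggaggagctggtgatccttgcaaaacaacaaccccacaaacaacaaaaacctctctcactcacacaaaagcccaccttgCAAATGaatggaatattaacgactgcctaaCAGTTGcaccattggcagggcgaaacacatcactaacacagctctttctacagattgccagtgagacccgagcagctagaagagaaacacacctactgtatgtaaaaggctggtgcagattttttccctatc
Neurod2: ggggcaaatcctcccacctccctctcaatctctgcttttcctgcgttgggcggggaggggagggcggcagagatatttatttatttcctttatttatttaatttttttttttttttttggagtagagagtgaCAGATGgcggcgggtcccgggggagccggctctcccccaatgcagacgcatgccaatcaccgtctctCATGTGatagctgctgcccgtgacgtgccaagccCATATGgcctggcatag
The E-box letters occurred 1 time in the Slc17a7 and Tbr1 windows, 2 times in that of Neurod6 and 3 times in that of Neurod2, and they were not in the windows of Fezf2 and Fibcd1. The motif is common: 66.2% of 32851 promoter windows of the same length hold at least 1 match. The more specific form CAGATG, which is itself a CANNTG, was found only in the Neurod2 window and in 14.4% of all windows. The T-box motif AGGTGTGA was in none of the 6 windows and in 1.12% of all. CCAAT lay in the Neurod6 and Neurod2 windows and in 33.8% of all, and GGGCGG in all windows but that of Neurod6 and in 32.7% of all. These matches describe letters in short windows and say nothing of binding.

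The tissue had the profile of striatum in every library. The summed FPKM of 23 marker genes of striatal projection neurons ran from 5551 to 6835 over the saline libraries and from 5564 to 6800 over the amphetamine libraries, with the opioid peptide precursor Penk at 1097 FPKM or above and the dopamine signalling phosphoprotein gene Ppp1r1b at 877 FPKM or above in every library. FPKM summed to between 533020 and 682270 per library, and the shallowest library had 0.652 of the depth of the deepest, as judged from the step that 1 read makes in low values. Libraries of 1 group correlated at r between 0.92 and 0.94 across genes, and the mouse is the replicate throughout.

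Slc17a7, the vesicular glutamate transporter gene of cortical neurons, had by far the highest level and the widest spread of the 6 genes. On day 1 its FPKM was 4.14, 27.6 and 14.8 in the saline mice and 1.61, 12.7 and 1.76 in the amphetamine mice. The day 7 values were 10.5, 4.56 and 1.69 with saline and 1.29, 3.48 and 7.49 with amphetamine. Day 21 gave 48.4, 7.42 and 19.6 with saline and 11.3, 20.3 and 10.5 with amphetamine. The highest library, saline replicate 1 of day 21, stood 37.5-fold above the lowest, amphetamine replicate 1 of day 7, and the treatment groups overlapped on every day. In bulk tissue, fewer cells of a type and less RNA per cell cannot be told apart, so these values do not separate the number of cortical cells from their expression.

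In order of mean, the groups ran from saline day 21 (25.1 ± 21.0 FPKM, SD, n = 3) through saline day 1 (15.5 ± 11.8), amphetamine day 21 (14.1 ± 5.43), saline day 7 (5.59 ± 4.51) and amphetamine day 1 (5.37 ± 6.38) to amphetamine day 7 (4.08 ± 3.14). Neighbours in this order differed by less than the larger SD of the pair, except amphetamine day 21 and saline day 7. The values of that pair lay just apart, with the lowest of the first at 10.543 FPKM and the highest of the second at 10.530 FPKM. The coefficient of variation of Slc17a7 over the 18 libraries was 102%, higher than in 97.8% of the 13975 genes with a mean of at least 1 FPKM, against 11.3% for the median gene.

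**Figure D1:**
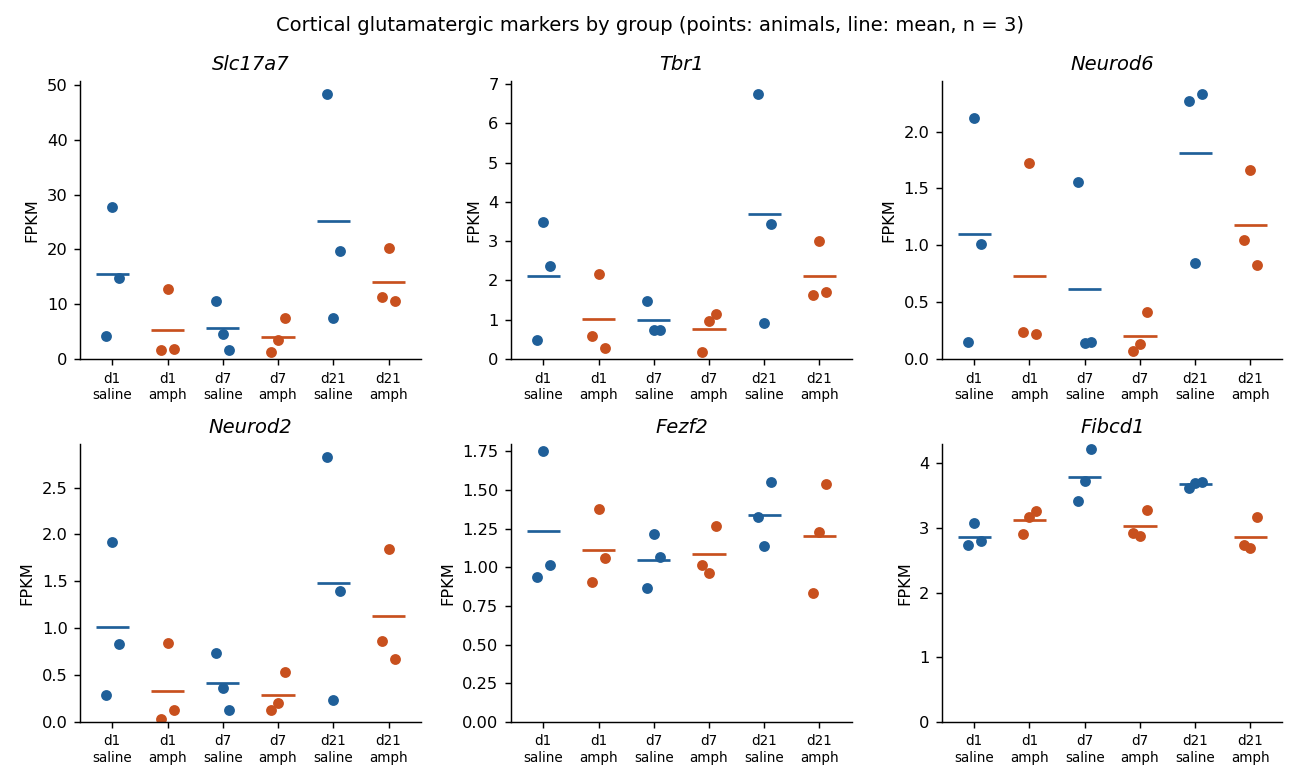
FPKM of the 6 genes (vertical axes, each from 0) in every library, by treatment and day (horizontal axis), with blue points for saline mice, orange points for amphetamine mice and a line at each group's mean (n = 3). Slc17a7, Tbr1, Neurod6 and Neurod2 scatter widely across the libraries, whereas Fezf2 stays between 0.836 and 1.75 FPKM and Fibcd1 between 2.69 and 4.23 FPKM.

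Tbr1, which specifies deep-layer cortical neurons that project to the thalamus, followed the same libraries at a lower level. Its FPKM on day 1 was 0.490, 3.48 and 2.38 with saline and 0.585, 2.17 and 0.286 with amphetamine. The day 7 values were 1.49, 0.728 and 0.728 with saline and 0.187, 0.961 and 1.15 with amphetamine. Day 21 gave 6.75, 0.910 and 3.45 with saline and 1.64, 2.99 and 1.71 with amphetamine. The same libraries were highest and lowest as for Slc17a7, 36.0-fold apart, and the treatment groups overlapped on each day. The steps between Tbr1 values correspond to 10 reads in the lowest library and 402 in the highest.

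Neurod6 and Neurod2, basic helix-loop-helix factors of differentiating and mature pyramidal neurons, had means of 0.940 and 0.774 FPKM, below the minimum mean of 1 FPKM set for the test across all genes. Neurod6 on day 1 was 0.153, 2.12 and 1.01 FPKM in saline mice and 0.234, 1.73 and 0.221 in amphetamine mice. The day 7 values were 1.56, 0.137 and 0.148 with saline and 0.0724, 0.130 and 0.413 with amphetamine. Day 21 gave 2.27, 0.842 and 2.33 with saline and 1.04, 1.66 and 0.828 with amphetamine. Saline replicates 1 and 3 of day 21 and saline replicate 2 of day 1 were the only libraries above 2 FPKM, and the groups overlapped on every day.

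Neurod2 on day 1 was 0.285, 1.92 and 0.829 FPKM in saline mice and 0.0259, 0.843 and 0.122 in amphetamine mice. The day 7 values were 0.737, 0.365 and 0.123 with saline and 0.120, 0.201 and 0.527 with amphetamine. Day 21 gave 2.83, 0.229 and 1.40 with saline and 0.862, 1.84 and 0.673 with amphetamine. The top library was again saline replicate 1 of day 21, and no day separated the treatments. The lowest values of these genes rest on very few reads, 2 for Neurod6 and 1 for Neurod2 by the steps between values, so no ratio of highest to lowest is given for them.

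Of the 6 highest libraries for each of Slc17a7, Tbr1, Neurod6 and Neurod2, 5 were shared by all 4 genes. They were saline replicate 2 of day 1, saline replicates 1 and 3 of day 21, and amphetamine replicate 2 of days 1 and 21. Among the 6 lowest libraries of each gene, 3 were shared: amphetamine replicate 3 of day 1, saline replicate 3 of day 7 and amphetamine replicate 1 of day 7. Both treatments were thus present at both ends of the order.

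Fezf2, the zinc finger gene of layer 5 and 6 projection neurons, varied far less across the same libraries. Its FPKM on day 1 was 0.938, 1.75 and 1.01 with saline and 0.905, 1.37 and 1.06 with amphetamine. The day 7 values were 0.864, 1.21 and 1.07 with saline and 1.02, 0.965 and 1.27 with amphetamine. Day 21 gave 1.33, 1.14 and 1.56 with saline and 0.836, 1.23 and 1.54 with amphetamine. The highest library exceeded the lowest by 2.10-fold, the coefficient of variation was 22.2%, and the treatment groups overlapped on every day. The steps between Fezf2 values correspond to between 24 reads, in amphetamine replicate 2 of day 7, and 57 reads, in saline replicate 2 of day 1. The part of counting noise in its spread and correlations was not tested. A straight line through the FPKM of the 18 libraries put Fezf2 at 1.03 FPKM where Slc17a7 would be 0, against 0.211 FPKM for Tbr1.

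Fibcd1, which encodes a membrane receptor for acetylated ligands such as chitin and is known as a marker of hippocampal CA1 pyramidal cells, varied least. Its FPKM on day 1 was 2.73, 3.07 and 2.79 with saline and 2.91, 3.17 and 3.27 with amphetamine. The day 7 values were 3.42, 3.73 and 4.23 with saline and 2.92, 2.87 and 3.28 with amphetamine. Day 21 gave 3.62, 3.69 and 3.72 with saline and 2.73, 2.69 and 3.18 with amphetamine. The groups overlapped on day 1, and on days 7 and 21 every amphetamine mouse lay below every saline mouse. The library with the most Slc17a7 had 3.62 FPKM of Fibcd1 and the library with the least had 2.92 FPKM, and the line through the libraries met 3.19 FPKM at no Slc17a7.

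Across the 18 libraries, on the scale log2(FPKM + 1), Slc17a7 correlated with Tbr1 at r = 0.96 (Spearman's rho 0.95), with Neurod2 at r = 0.95 (rho 0.98) and with Neurod6 at r = 0.92 (rho 0.89). The permutation p of each of these r values was 1e-05, the smallest that 100000 permutations can give, and 2.5e-05 after Benjamini-Hochberg adjustment over the 15 pairs of the 6 genes. The remaining 3 pairs among Tbr1, Neurod6 and Neurod2 had r between 0.89 and 0.96, with the same p. Without the 2 libraries farthest from the median of Slc17a7, r was 0.94 with Tbr1, 0.94 with Neurod2 and 0.90 with Neurod6. After the mean of each treatment and day was subtracted, the values were 0.93, 0.93 and 0.91, so the relation held inside the groups. Each library carries a number in the labels whose meaning is not given, and within the blocks of 7 and 6 libraries with the nearest numbers r with Tbr1 was 0.97 and 0.90. The third block holds 5 libraries, too few for a value. As a ratio of levels per length, the FPKM of Slc17a7 was 6.39 times that of Tbr1 in the median library, with a range from 2.32 to 8.45. The same ratio to Fibcd1 ran from 0.40 to 13.4 with a median of 2.68, so Slc17a7 lay below Fibcd1 in some libraries and far above it in others.

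Fezf2 had a weaker relation with these 4 genes. Its r was 0.56 with Slc17a7 (rho 0.54, permutation p = 0.0156, adjusted p = 0.026), 0.57 with Tbr1 and Neurod2 and 0.54 with Neurod6. By rank, the relations with Neurod2 (rho 0.49, permutation p = 0.0404, adjusted p = 0.0673) and Neurod6 (rho 0.47, permutation p = 0.051, adjusted p = 0.0765) did not pass. Within the blocks of 7 and 6 libraries by label number, r with Slc17a7 was 0.36 and 0.66. Without the 2 libraries farthest from the median of the other gene, r was 0.43 with Neurod6 and 0.44 with Neurod2, both with an adjusted p of 0.142, and a pseudocount of 0.1 ended the call with Neurod6 (adjusted p = 0.0563). After subtraction of the group means, r with Slc17a7 was 0.47 and its adjusted p 0.0719, and the other 3 relations also lost their call. All 4 also lost it when the library with the highest Fezf2, saline replicate 2 of day 1, was left out (r with Slc17a7 0.48, adjusted p = 0.087), and when saline replicate 3 of day 21 was (r = 0.53, adjusted p = 0.053). When amphetamine replicate 1 of day 1 was left out, the relations with Slc17a7 (r = 0.52, adjusted p = 0.0527), Neurod2 (r = 0.54, adjusted p = 0.0504) and Neurod6 (r = 0.51, adjusted p = 0.0548) were lost. That with Neurod6 was also lost in the absence of saline replicate 1 (adjusted p = 0.0545) or amphetamine replicate 2 of day 1 (adjusted p = 0.0528), or of amphetamine replicate 2 of day 7 (adjusted p = 0.053).

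Fibcd1 showed no detectable relation with Slc17a7 over the 18 libraries. Its r with Slc17a7 was -0.01 (rho -0.06, permutation p = 0.963, adjusted p = 0.963), and its r with Tbr1, Neurod6 and Neurod2 lay between -0.03 and 0.06. The values within the label number blocks were opposite in sign, with r with Slc17a7 at 0.47 in the block of 7 libraries and -0.70 in the block of 6, and the difference between the blocks was not tested. With Fezf2 it had an r of 0.29 (adjusted p = 0.319) over all libraries and of 0.66 (adjusted p = 0.00703) after subtraction of the group means. The permutation p of the latter is likely too small, because deviations inside a group are not independent of each other. By their values across libraries, the 6 genes therefore did not form a single group: 4 moved together, Fezf2 only loosely with them, and Fibcd1 showed no relation with them over all libraries.

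**Figure D2:**
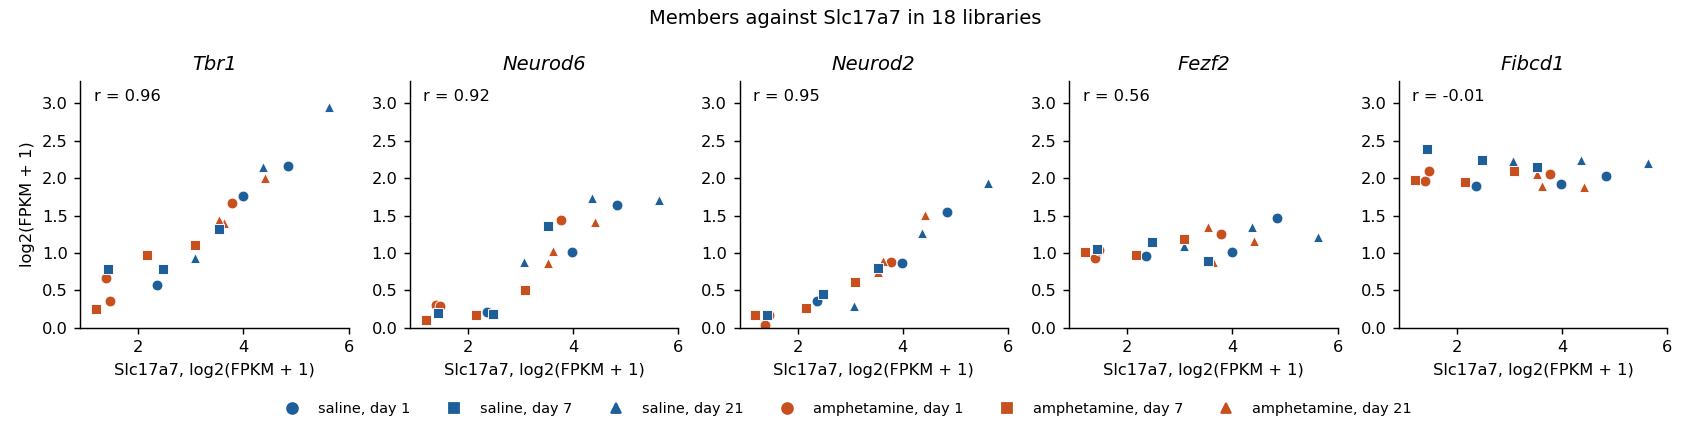
Level of 5 genes (vertical axes) against Slc17a7 (horizontal axes), both as log2(FPKM + 1), with 1 point per library, colour for treatment and shape for day. Tbr1, Neurod6 and Neurod2 climb with Slc17a7 (r = 0.96, 0.92 and 0.95), Fezf2 does so weakly (r = 0.56), and Fibcd1 is flat (r = -0.01).

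The relation was next read against all other genes, with limma on log2(FPKM + 1), the 6 group means in the model and Slc17a7 as a covariate. Of 13974 genes tested, 7 had a slope on Slc17a7 past an adjusted p of 0.05, which is 0.0501%, and all 7 slopes were positive. Tbr1 was among them, with 0.56 ± 0.06 (SE) log2 units per log2 unit of Slc17a7 and an adjusted p of 0.00405 by limma. Fezf2 (0.08 ± 0.05, adjusted p = 0.907) and Fibcd1 (-0.0018 ± 0.025, adjusted p = 0.996) did not pass. Tbr1 passed in each of the 18 fits that left out 1 library, with adjusted p values from 0.00117 to 0.0403.

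In the same fit without a filter on low values, 16 of 22866 genes passed, or 0.07%, again with positive slopes. Neurod2 was called there with a slope of 0.43 ± 0.05 (limma, adjusted p = 0.00632) and Neurod6 with 0.45 ± 0.06 (limma, adjusted p = 0.0125). When the label number entered as a further term, by its range, the adjusted p was 0.0805 for Neurod2 and 0.132 for Neurod6, and 0.0414 for Tbr1. The range with 5 libraries holds only mice of day 1, so that term is tied to the day. Saline replicate 1 of day 1 alone links that day to the other ranges. This alternative is therefore not separate from leaving that library out. The call of Neurod6 was also lost when saline replicate 1 (adjusted p = 0.078), saline replicate 2 (adjusted p = 0.0635) or amphetamine replicate 2 of day 1 (adjusted p = 0.0967) was left out, or saline replicate 2 of day 21 (adjusted p = 0.0659). The call of Neurod2 was lost when saline replicate 1 of day 1 was left out (adjusted p = 0.0508).

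The other 6 genes with a called slope were Nr4a2, 3110035E14Rik, Cck, Nov, Nxph3 and Rtn4r. Nr4a2, an orphan nuclear receptor of deep cortical layers and claustrum, had the smallest p, with a slope of 0.60 ± 0.06 (limma, adjusted p = 0.00123). Its FPKM was 0.253 in the library lowest in Slc17a7 and 6.83 in the highest. Cck, a neuropeptide precursor made by many cortical cells, rose with Slc17a7 by 0.51 ± 0.07 per log2 unit (limma, adjusted p = 0.0188), and its FPKM ran from 4.98 to 27.5 between those libraries. Rtn4r, the receptor for the myelin inhibitor Nogo, had a slope of 0.31 ± 0.05 (limma, adjusted p = 0.0436). The count of 7 called genes depended on single libraries: it was 2 when saline replicate 1 or 2 or amphetamine replicate 2 of day 1, or saline replicate 1 of day 21, was left out. It was 3 when the library left out was amphetamine replicate 1 of day 1 or saline replicate 1 of day 7. It was 4 for saline replicate 2 of day 7, amphetamine replicate 1 or 2 of day 7, saline replicate 2 of day 21 and amphetamine replicate 1 of day 21.

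Likeness was measured as the median of a gene's Pearson r with each of the 6 genes over the 18 libraries, given here as a description. Slc17a7, Tbr1, Neurod6 and Neurod2 moved together, so this median mostly reflects them and says little of Fezf2 and Fibcd1. The median was highest for Cck at 0.907, 3110035E14Rik at 0.906 and Nr4a2 at 0.901. C1ql3, a secreted C1q-like synaptic protein, followed at 0.889, then Nov at 0.879, Rtn4r at 0.872, Nxph3 at 0.863 and Nrn1, the activity-linked growth factor neuritin, at 0.836. Ipcef1, Cadps2, Cebpg and Ncald completed the first 12, the last at 0.753. The first 9 of these genes had an r with Fibcd1 between -0.07 and 0.12. At the other end, Fam193b had -0.726 and Slc18a3, the vesicular acetylcholine transporter of striatal cholinergic interneurons, -0.682, with Crlf2, Adck4 and Nckap5l between them.

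Other markers of cortical neurons gave a mixed picture. Of the 8 tested genes of a pan-cortical excitatory list, 4 had an r with Slc17a7 of at least 0.5, against 2.61% of all tested genes. Camk2a, the alpha subunit of a calcium-dependent kinase, was among them with r = 0.61, although it is abundant in striatal neurons as well and ran only from 322 to 409 FPKM. The synaptic vesicle gene Sv2b had r = 0.73 and ran from 25.5 to 43.0 FPKM. Nrn1 had r = 0.87 and ran from 0.710 to 12.4 FPKM. Nrgn, a postsynaptic calmodulin-binding protein at 739 FPKM on average, had r = -0.03, and Lmo4 had r = 0.24.

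Deep-layer genes followed Slc17a7 in part. Of 13 tested, 3 reached an r of 0.5: Nr4a2 (r = 0.94), Ctgf, a matricellular growth factor of subplate neurons (r = 0.77), and Rprm (r = 0.72), a cell cycle regulator, the last named after its values were seen. The deep-layer genes with the highest levels, Syt6, Tle4, Foxp2 and Etv1, had r between -0.35 and 0.18. Below the filter, Cplx3 had r = 0.74 and Ntsr1 r = 0.24. None of 8 tested upper-layer genes reached 0.5, and the highest-level ones, Calb1 and Cux1, had r = 0.06 and -0.27. The share of striatal cells in the levels of these highest-level genes of both lists was not tested. Their r therefore cannot be read as that of cortical cells alone. Of 6 genes of claustrum and endopiriform nucleus, neighbours of the striatum on its lateral side, 3 reached 0.5, Nr4a2 again being 1 of them. Within the family of vesicular glutamate transporters, Slc17a8, which cholinergic interneurons of the striatum also express, had r = 0.50 and ran only from 3.32 to 5.76 FPKM. Slc17a6, the transporter of thalamic neurons, was between 0.0488 and 1.77 FPKM with r = 0.28.

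The mean log2(FPKM + 1) of each of 17 marker lists was compared with Slc17a7 over the 18 libraries. The pan-cortical list had r = 0.93 (rho 0.92), the claustrum and endopiriform list r = 0.91 (rho 0.92) and the deep-layer list r = 0.87 (rho 0.89), each with a permutation p of 1e-05 and an adjusted p of 5.67e-05 over the lists. Nr4a2 is on the last 2 of these lists, and no value without it was taken. A mean of this kind follows the genes with the widest swings. The median r of the single tested genes was 0.54, 0.47 and 0.18 in the same order, so the lists did not follow Slc17a7 as wholes. Without the 2 libraries farthest from the median of Slc17a7 the values were 0.89, 0.89 and 0.82. The upper-layer list had r = 0.41 (rho 0.38, permutation p = 0.0891, adjusted p = 0.238), and r = 0.10 without those 2 libraries.

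No other list passed, and the 9 not described further had r between -0.35 and 0.48. Striatal projection neuron genes had r = -0.21 (rho -0.25, permutation p = 0.391, adjusted p = 0.604), and 0 of 23 reached an r of 0.5. That r was -0.03 without the 2 libraries farthest from the median of Slc17a7, and -0.09 without saline replicate 1 of day 21 alone. Hippocampal genes had r = 0.03 (rho 0.17, permutation p = 0.914, adjusted p = 0.97). Septal and pallidal genes had r = -0.41 (rho -0.32, permutation p = 0.0928, adjusted p = 0.238), and cortical-type interneuron genes r = 0.40 (rho 0.54, permutation p = 0.098, adjusted p = 0.238), with Cck on that list. Without the same 2 libraries, r was -0.04 for the hippocampal, -0.50 for the septal and pallidal and 0.25 for the interneuron list. The r of Slc17a7 with relative depth was 0.27 (rho 0.30, permutation p = 0.269) and with the summed FPKM -0.21 (rho 0.09, permutation p = 0.43). The part of neighbouring tissue in these levels was not tested.

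**Figure D3:**
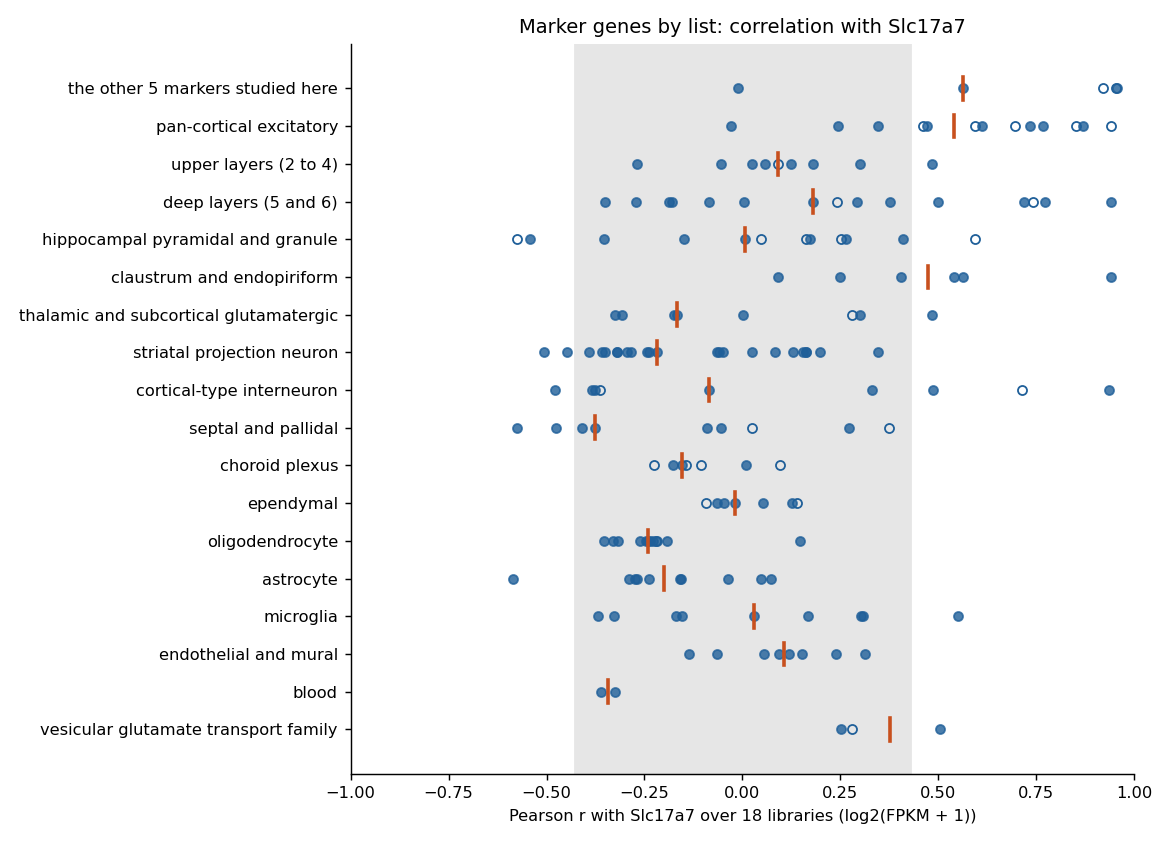
Pearson r with Slc17a7 over the 18 libraries (horizontal axis) for each gene of the marker lists (rows), with filled points for genes of mean FPKM of at least 1, open points for genes below it and an orange bar at the median of the tested genes of a list. The grey band holds the middle of all 13974 tested genes, from the 5th percentile at -0.43 to the 95th at 0.43. The points beyond its right edge lie mainly in the top row of markers studied here and in the pan-cortical, deep-layer, claustrum and cortical-type interneuron rows.

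Amphetamine was compared with saline on each day and over the mean of the 3 days, with limma across all genes. None of the 6 genes passed an adjusted p of 0.05 in any of these. In the filtered fit, which tested 4 of the 6, the share of all 13975 genes called was 0.00716% on day 1, 0.0215% on day 7, 0% on day 21 and 0.122% for the mean of the days. The fit without a filter, used for Neurod6 and Neurod2, called 0.00437%, 0.00875%, 0% and 0.0612% of 22867 genes. On day 21, where limma called 0 genes in the filtered fit, 768 had an unadjusted p under 0.05.

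The difference of Slc17a7 on day 1 was -1.52 ± 0.83 (SE) log2 units (limma, adjusted p = 0.676), with differences of -0.33 on day 7 and -0.50 on day 21, and its mean over the days was -0.78 ± 0.48 (limma, adjusted p = 0.999). Tbr1 differed by -0.60, -0.19 and -0.40 on days 1, 7 and 21, Neurod6 by -0.27, -0.32 and -0.34, and Neurod2 by -0.56, -0.12 and -0.12 on the log2(FPKM + 1) scale. Over the mean of the days the difference was -0.40 ± 0.29 for Tbr1, -0.31 ± 0.24 for Neurod6 and -0.27 ± 0.23 for Neurod2, each with an adjusted p of at least 0.968 by limma. Single libraries moved these differences: on day 1, leaving out amphetamine replicate 2 gave -2.30 for Slc17a7 and leaving out saline replicate 2 gave -0.96. For Tbr1 on day 1, omitting these 2 libraries in the same order gave -0.99 and -0.27, omitting saline replicate 1 gave -1.06 and omitting amphetamine replicate 3 gave -0.33. For Neurod2 on day 1, omitting saline replicate 1 gave -0.85 and omitting saline replicate 2 gave -0.25. In the mean of the days, the difference of Tbr1 was -0.24 without saline replicate 1 of day 21, and that of Neurod6 ranged from -0.44 to -0.18 and that of Neurod2 from -0.41 to -0.14 when 1 library was left out. Of the 18 differences of a gene on a day, 16 were below 0, but the 4 genes that co-vary share their libraries and are not independent of each other. Fezf2 differed by -0.07, 0.03 and -0.10 on the 3 days and by -0.05 ± 0.09 in the mean (limma, adjusted p = 0.999).

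**Figure D4:**
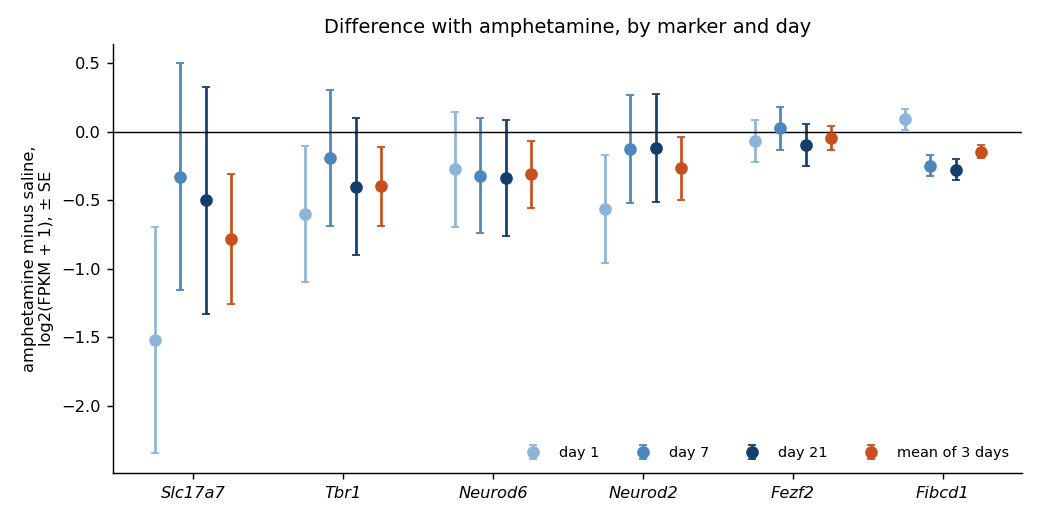
Difference between amphetamine and saline in log2(FPKM + 1) (vertical axis) for each gene (horizontal axis) on days 1, 7 and 21 and in the mean of the days, with points at the limma estimate and bars of 1 SE. The bars of Slc17a7, Tbr1, Neurod6 and Neurod2 are wide, and those of Fibcd1 are short and lie below 0 on days 7 and 21.

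Fibcd1 had the smallest errors of the 6 genes and was the only one with days on which its treatment groups did not overlap. Its mean was 3.79 ± 0.41 FPKM (SD, n = 3) in the saline mice of day 7 against 3.02 ± 0.22 in the amphetamine mice, and on day 21 it was 3.68 ± 0.05 against 2.87 ± 0.27. The difference was -0.25 ± 0.08 log2 units on day 7 (unadjusted p = 0.00552, limma adjusted p = 0.822) and -0.28 ± 0.08 on day 21 (unadjusted p = 0.00272, limma adjusted p = 0.769). Groups with amphetamine wholly below saline were found for 2.91% of all tested genes on day 1, where none of the 6 was among them, and for 4.86% on day 7 and 7.51% on day 21, where only Fibcd1 was. Over days 7 and 21 both, 57 genes or 0.408% of those tested showed it, Fibcd1 among them. These days and this direction are the ones that Fibcd1 showed, so that share is a description and no test. On day 1 the difference was 0.09 ± 0.08 (limma, adjusted p = 0.735), with means of 2.86 ± 0.18 FPKM for saline and 3.12 ± 0.19 FPKM for amphetamine. Over days 1, 7 and 21 the saline means were thus 2.86, 3.79 and 3.68 FPKM. The amphetamine means were 3.12, 3.02 and 2.87 FPKM.

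The interaction of treatment with day had an adjusted p of 0.773 for Fibcd1 by limma (unadjusted p = 0.00686), and no gene of the table passed that test, against 873 with an unadjusted p under 0.05. Among the saline mice alone, the day effect had an adjusted p of 0.629 for Fibcd1 by limma (unadjusted p = 0.00209). It was 0.864 for Slc17a7 (unadjusted p = 0.103). In that test 0.00716% of genes passed, and 832 had an unadjusted p under 0.05. For the other 5 genes the interaction had an adjusted p between 0.884 and 1 by limma.

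Finally, Slc17a7 was added as a covariate to the treatment comparison of all genes. Over the mean of the 3 days, limma called 17 genes without the covariate, all higher with amphetamine, and 8 with it, and all of those 8 were among the 17. The log2 difference of Fos, the immediate early transcription factor, was 1.98 without the covariate and 1.86 with it, and that of Btg2, an early growth-arrest gene, was 1.58 and 1.55, both named after their values were seen. Of the 17, Nr4a1 had the adjusted p 0.0488 without and 0.202 with the covariate, at differences of 0.86 and 0.76. The covariate also takes 1 residual degree of freedom from the fit. Without the covariate, the count of 17 was 8 when saline replicate 1 of day 7 was left out, 9 for amphetamine replicate 1 of day 21 and for 3 libraries of day 7 (saline replicate 3, amphetamine replicates 2 and 3), 10 for saline replicate 2 or 3 of day 1, and 11 for amphetamine replicate 1 of day 7 or saline replicate 1 or 3 of day 21. With the covariate, the mean difference of Tbr1 was 0.04, that of Neurod6 0.04, that of Neurod2 0.07 and that of Fezf2 0.02 log2 units, each near 0 and of opposite sign to the value without it, and none passed the test. These genes have positive slopes on Slc17a7, whose own mean difference was below 0. An upward shift thus follows from the covariate itself and is no separate result.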

How the data were processed

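Striatal polyA RNA of 18 mice was analysed, 3 in each of 6 groups named by the labels. The values are FPKM as deposited by the authors, 1 column per mouse. The submitters' processing notes name Bowtie and the mouse build mm9, and no source used here names the quantifying program or annotation. Because the sequences come from GRCm38.p6, their coordinates apply only to that build. FPKM carry no counts, so read depth is known only in relative terms. Whole multiples of 1 read (within 0.05 reads) were found for 51.6% of 1960 genes used to estimate it.

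Values were taken as log2(FPKM + 1), with a pseudocount of 1 that understates changes of low genes. The 13975 genes with a mean of at least 1 FPKM were tested with limma 3.58.1 in R 4.3.3 (means of 6 groups, trended moderation, Benjamini-Hochberg over all genes, threshold 0.05). Neurod6 and Neurod2 fell below that filter and were read from the same fit on all 22867 genes with a value above 0. Members of a group were treated as biological replicates. With 3 against 3, an exact permutation test cannot go below 0.1, so single genes were tested only in the limma fit. Correlations used 100000 permutations. Deviations from group means were permuted freely over all libraries although those of a group sum to 0, so their p values are likely too small. Replicate numbers were not used as pairs in the main fit. Same-numbered saline and amphetamine libraries of a day deviated at r between -0.09 and 0.14, above 0.1 in 3 of 9 pairs. The 18 pairs with other numbers had r between -0.14 and 0.13. Whether the numbers pair the mice was not tested. Both the fit and the correlations were tested on simulated data.

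The 6 genes and the 17 marker lists (162 genes) were chosen with earlier results of these data known. Genes named beyond the 6 were the 12 most and 5 least alike, the 12 with the smallest p for a slope on Slc17a7 in each direction, and the highest-level genes of each list, up to 6 for cortical lists and 3 for others. Alternatives were another pseudocount, other filters, scalings and weights, the replicate block, the label number, single days, Slc17a7 as a covariate and leaving out each library.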

Additional observations from a re-analysis of the deposited data

How the results depend on the processing

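No treatment difference, interaction or day effect of the 6 genes passed the limma threshold under any alternative run. The 6 correlations among Slc17a7, Tbr1, Neurod6 and Neurod2 held under each alternative run for them, and the Tbr1 slope kept its call under each that kept the gene. With a minimum mean of 5 FPKM, Slc17a7 is the only 1 of the 6 genes left, so that filter gives no value for the others. Other results moved, and the cause was not tested unless the alternative has fewer genes or libraries. FPKM limit the depth that can be stated, and the lowest values of Neurod6 and Neurod2 rest on 2 reads and 1 read.

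With genes of a mean FPKM of at least 5, limma called 3 genes on day 1, 5 on day 7, 4 on day 21, 0 for the day effect in saline and 2 for the slope on Slc17a7. Without a filter, 0 genes had a day effect and 16 a slope. Array weights gave 4, 6 and 5 calls on the 3 days, 28 for their mean and 3 for the day effect. Quantile normalization gave 3 calls on day 21 and 0 for the day effect. Adding the label number by its range gave 2 calls on day 1, 16 for the day effect and 2 for the interaction. The range with 5 libraries holds only mice of day 1, so these counts cannot separate range from day. Slc17a7 as a covariate gave 0 calls on day 1, 8 for the mean of the days and 0 for the day effect, and fits to the 6 libraries of 1 day gave 3, 9 and 6. With the replicate block, 0 genes were called on day 7, 8 for the mean of the days, 0 for the day effect and 5 for the slope. That block also ended the call of the Neurod6 slope (adjusted p = 0.0655), and array weights did so by a narrow margin (adjusted p = 0.0501). Replicate numbers were not used as pairs in the main fit: same-numbered libraries had r between -0.09 and 0.14, against -0.14 to 0.13 for other pairs.

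With Slc17a7 as a covariate, differences changed sign for Tbr1 (0.25 on day 1, 0.039 in the mean), Neurod6 (0.41 on day 1, 0.039 in the mean), Neurod2 (0.086, 0.016 and 0.097 on days 1, 7 and 21, 0.067 in the mean) and Fezf2 (0.052 on day 1, 0.015 in the mean). Upward shifts follow from this covariate itself, since the slopes on Slc17a7 are positive and its own differences were negative. Fezf2 on day 7 was -0.0027 after quantile normalization and -0.010 with array weights. Neurod2 on day 21 was 4.1e-05 with a pseudocount of 0.1. The Fibcd1 slope on Slc17a7 was 0.0033 after median-of-ratios scaling and 0.0036 after quantile normalization, and the r of this pair was 0.0045 after median-of-ratios scaling. After subtraction of group means, r was -0.064 for Neurod6 with Fibcd1 and -0.26 for Slc17a7 with the hippocampal list. Without the 2 libraries farthest from the median, r with Fibcd1 was -0.17 for Tbr1 and -0.19 for Neurod6, and that of the hippocampal list was -0.044.

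Leaving out 1 library at a time gave 1 to 8 calls on day 1, 0 to 10 on day 7, 0 to 6 on day 21 and 8 to 17 for their mean. It gave 0 to 2 for the day effect, 0 to 2 for the interaction, 2 to 6 for the slope, and 6 to 10 of the 15 gene pairs. Differences ranged for Slc17a7 from -0.85 to 0.20 on day 7 and -1.14 to 0.14 on day 21, and for Tbr1 from -0.35 to 0.073 and -0.94 to 0.069. For Neurod6 they ranged from -0.66 to 0.072 on day 1 and -0.52 to 0.066 on day 7, and for Neurod2 from -0.28 to 0.038 on day 7 and -0.55 to 0.27 on day 21. Those of Neurod6 on day 21 ranged from -0.62 to -0.19. For Fezf2 they ranged from -0.16 to 0.091, -0.041 to 0.083 and -0.21 to 0.028 on the 3 days and from -0.083 to 0.0066 in the mean. The Fibcd1 slope ran from -0.012 to 0.014. The r of Fibcd1 ran from -0.15 to 0.21 with Slc17a7, -0.091 to 0.19 with Tbr1, -0.054 to 0.25 with Neurod6 and -0.19 to 0.13 with Neurod2, and that of the hippocampal list from -0.053 to 0.22.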

Other observations

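Among genes with a mean below 1 FPKM, those called for a positive slope on Slc17a7 in the limma fit without a filter included 4 that are named here after their values were seen. Bmp3, a secreted member of the bone morphogenetic protein family, had a slope of 0.19 ± 0.02 (SE) log2 units per log2 unit (limma, adjusted p = 0.00632) at a mean of 0.262 FPKM. Prss12, the synaptic serine protease neurotrypsin, had 0.31 ± 0.04 (limma, adjusted p = 0.00632) at 0.675 FPKM. Rtn4rl2, a relative of the Nogo receptor gene Rtn4r, had 0.44 ± 0.05 (limma, adjusted p = 0.00839) at 0.951 FPKM. The smallest p belonged to 9130024F11Rik, a gene known by its clone name, with a slope of 0.31 ± 0.03 (limma, adjusted p = 0.00107) at 0.463 FPKM.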
